A study of Homo sapiens with 9 samples.

Results

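The gene expression response of NCI-H295R cells to serum starvation with metformin was compared with normal growth. The comparison uses 6 of the 9 arrays of the series, 3 per group, chosen by the condition in the sample labels alone. NCI-H295R is a human adrenocortical carcinoma line that makes androgens, glucocorticoids and mineralocorticoids, and the labels name no transgene or deletion. All cells first grew for 24 h in normal growth medium. The normal growth group then stayed in that medium for 48 h, which holds serum with insulin, transferrin and selenium. The metformin group spent the same 48 h in serum free medium without those supplements and with 10 mM metformin. The remaining 3 arrays come from 48 h in serum free medium without the drug, and this starvation group is set beside the others here. No array held metformin in growth medium, so starvation and metformin cannot be told apart in the contrast with normal growth. The contrast of the metformin arrays with the starvation arrays tests the drug against the same medium. RNA was labelled and hybridized to single-colour arrays that read each transcript with probes along its exons. The values were log2 expression levels of 33297 probe sets, of which 19460 carry 1 gene symbol and give 18417 genes. Nothing says that the metformin arrays came from separate cultures, and the spread behind the p values may therefore be technical.

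Metformin is a biguanide used in type 2 diabetes and in polycystic ovary syndrome. In cells it lowers the activity of complex I of the respiratory chain, which limits ATP and the regeneration of oxidised cofactors and activates the energy sensor AMPK. Cells short of amino acids or under mitochondrial or endoplasmic reticulum stress start the integrated stress response, in which kinases phosphorylate the initiation factor eIF2 and the factor ATF4 is translated preferentially. ATF4 then raises genes of amino acid synthesis, amino acid transport and tRNA charging, together with DDIT3 and TRIB3. The unfolded protein response raises chaperones of the endoplasmic reticulum through XBP1 and ATF6. Entry into S phase runs through E2F factors, which control genes of DNA replication, and histone messages are made only while DNA is copied. In the adrenal cortex, the factor NR5A1 maintains the enzymes that turn cholesterol into steroids, and HSD3B2 commits precursors to progesterone, cortisol and androstenedione in place of DHEA.

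The arrays of each group were close to one another, and the metformin arrays were the most spread. Array medians lay between 6.04 and 6.16, and all values between 1.57 and 13.7. Pearson correlations between arrays were 0.996 to 0.997 within normal growth, 0.994 to 0.997 within starvation and 0.990 to 0.995 within metformin, against 0.989 to 0.993 between metformin and normal growth. The cells carried adrenocortical markers in every group, with a mean log2 level over 11 measured markers of 9.79 to 9.89 in normal growth and 9.58 to 9.77 with metformin. Of these 11, 4 fell (36.4%) and 1 rose. None of 10 fibroblast, 8 endothelial and 6 immune markers passed the test. The mean levels of these 3 lists were 5.38 to 5.39, 4.52 to 4.56 and 4.69 to 4.81 in normal growth, and 5.21 to 5.33, 4.45 to 4.66 and 4.68 to 4.82 with metformin. Of 9 epithelial markers 1 rose, the adhesion molecule EPCAM (0.57 ± 0.11, adjusted p = 0.0342), with list means of 6.02 to 6.10 in normal growth and 5.99 to 6.15 with metformin. Of 9 reference genes, only the light chain of class I molecules, B2M, passed, with a log2 change of 0.30 ± 0.07 and an adjusted p of 0.047. The reference gene PPIA had a log2 change of -0.02 ± 0.07.

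Starvation with metformin changed many genes, in nearly equal numbers up and down. Here a log2 change is the mean of the metformin arrays minus the mean of the normal growth arrays, given ± its standard error with 3 arrays per group. The test was limma with Benjamini-Hochberg adjustment over all probe sets. At an adjusted p under 0.05, 1134 genes were higher with metformin (6.16% of 18417 genes tested) and 1172 were lower (6.36%). Of these, 348 rose and 358 fell by at least 1.5-fold. At 2-fold, 59 genes were higher (0.32%) and 71 lower (0.386%). The 3 metformin arrays lay wholly above the 3 normal growth arrays in 3099 genes (16.8%) and wholly below in 3491 (19%), among them all 2306 called genes. The median change of all genes was -0.02. Against starvation alone, 579 genes were higher with metformin (3.14%) and 532 lower (2.89%). Counts of list members below are to be read beside the shares of all genes in the same contrast.

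**Figure D1:**
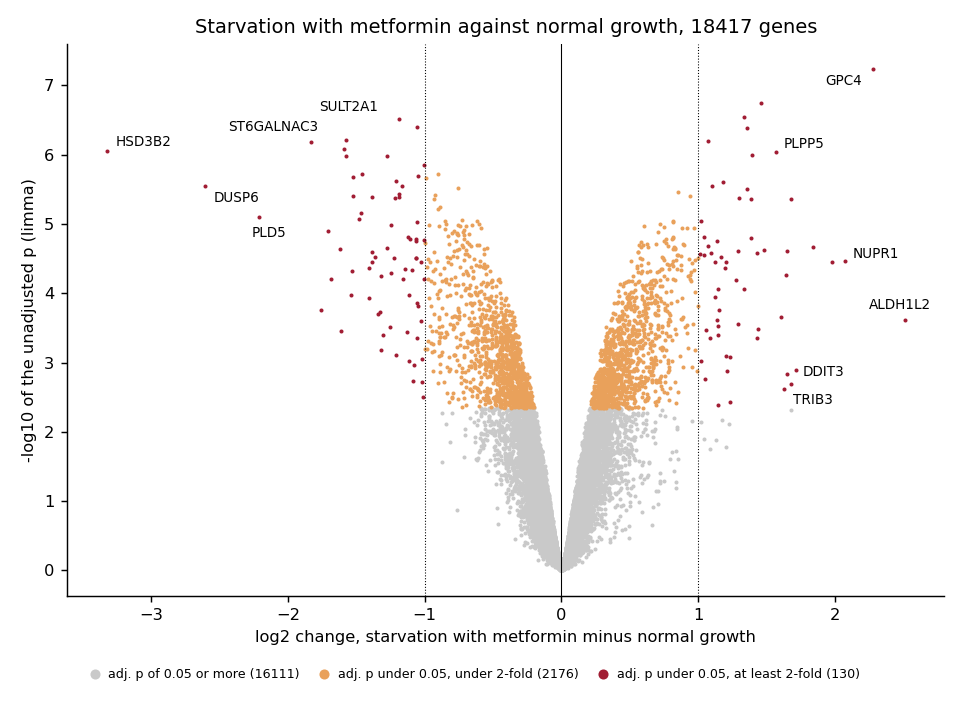
Each point is 1 of 18417 genes. The x axis gives the log2 change (metformin mean minus normal growth mean) and the y axis -log10 of limma's unadjusted p. Colours separate genes past the adjusted p of 0.05 and those that also changed by at least 2-fold, which number 59 on the right and 71 on the left, with HSD3B2 farthest left at -3.32 and ALDH1L2 farthest right at 2.51.

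The calls rest on few arrays, and this bears on every count below. Without any 1 of the normal growth arrays, 360 to 409 of 18417 genes passed, and without metformin A, B or C 1214, 1621 and 2542 passed. Against starvation, 0 of the 1111 calls were left by limma without any 1 starvation array or without metformin A, where 3254 to 3830 genes had an unadjusted p under 0.05, and 573 and 718 genes passed without metformin B and C. Every call against starvation given below is open to this limit. Of 194 genes that passed and fall under the rule for named genes, 54 passed with each of the 6 arrays left out in turn, which is called holding below. Among the 15 largest rises and the 15 largest falls, 21 did so, and the exceptions were ALDH1L2, DDIT3, DMGDH, NMRAL2P, TRIB3, SPINK7, GNRHR, ELOVL3 and PLK2, each lost without any 1 of the normal growth arrays. Metformin B moved least in many of the genes that changed most. It was the lowest of its group in 36 of the 59 genes that rose 2-fold and the highest in 51 of the 71 that fell 2-fold, while it was the lowest in 28.5% of all genes. Why this array stands apart was not tested, and the leading stress genes are given with and without it. Metformin B was picked out from changed genes of these data. A gene that passes only without it is therefore counted as not passed.

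The largest rises named a folate enzyme, a cell surface proteoglycan and stress factors. ALDH1L2, the mitochondrial enzyme that oxidises formyl tetrahydrofolate, read 5.12, 4.82 and 4.76 in normal growth arrays A, B and C, 5.68, 5.47 and 5.68 in starvation, and 8.01, 6.71 and 7.5 with metformin. All metformin arrays were above all others, with B the lowest of them. The change was 2.51 ± 0.32 log2 units (5.69-fold, adjusted p = 0.0123), and against starvation 1.80 ± 0.32 (adjusted p = 0.0404). Without 1 normal growth array its adjusted p reached 0.0668, and without metformin B the change was 2.86 (adjusted p = 0.0112).

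GPC4, a glypican that holds growth factors at the membrane, read 7.09, 7.19 and 7.02 in normal growth, 7.67, 7.45 and 7.71 in starvation and 9.46, 9.37 and 9.29 with metformin. The metformin arrays were tightly grouped and stood apart from both other groups. The rise of 2.27 ± 0.07 (4.84-fold, adjusted p = 0.00194) held with each array left out. SERPINE2, a secreted protease inhibitor, read 6.19, 6.22 and 6.30 in normal growth, 6.29, 5.98 and 6.03 in starvation and 8.45, 7.79 and 8.41 with metformin, a change of 1.98 ± 0.18 (adjusted p = 0.00583). Starvation alone overlapped normal growth for this gene.

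The rest of the 15 largest rises lay between 1.48 and 2.08. They include GPAT3, which adds a fatty acid to glycerol phosphate (1.84 ± 0.15), the phosphatidate phosphatase PLPP5 (1.57 ± 0.08), and arginase ARG2 of the mitochondrion (1.48 ± 0.13). The neutral amino acid carrier SLC43A1 rose by 1.64 ± 0.16, the choline pathway enzyme DMGDH by 1.68 ± 0.32, and ADHFE1, an iron-containing alcohol dehydrogenase, by 1.65 ± 0.14. SEL1L3 (1.68 ± 0.11) and the protease inhibitor SPINK7 (1.6 ± 0.20) also rose, as did the transcribed pseudogene NMRAL2P (1.65 ± 0.30). All of these were also higher against starvation, except that DMGDH (adjusted p = 0.0548) and NMRAL2P (adjusted p = 0.0809) did not pass that test. DMGDH and SPINK7 are dim, with means of 4.09 and 3.16 in normal growth against array medians of at least 6.04, and both fall out when the dimmest 40% of probe sets are removed. The size of their changes is therefore uncertain.

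The largest falls were led by a steroid enzyme and by a phosphatase of ERK. HSD3B2 read 8.98, 9.11 and 9.18 in normal growth, 6.93, 7.17 and 7.2 in starvation and 5.42, 6.02 and 5.86 with metformin. The 3 groups did not overlap, and the order was normal growth, starvation, metformin. It fell by 3.32 log2 units (SE 0.16, adjusted p = 0.00221), about 10.0-fold, and this held with each array left out, with adjusted p up to 0.0376. The difference from starvation was -1.33 ± 0.17 (adjusted p = 0.0212).

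DUSP6, a phosphatase that switches off ERK and is itself an ERK target, read 8.44, 8.77 and 8.61 in normal growth and 6.29, 5.95 and 5.76 with metformin. Its starvation arrays all read 7.59, a value that summarising probes can repeat and that is no measure of spread. The groups did not overlap. The change was -2.61 ± 0.15 (6.10-fold, adjusted p = 0.00313), and -1.59 ± 0.14 against starvation (adjusted p = 0.013). The repeated starvation value adds no spread to the latter test, so its standard error and p may be too small.

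PLD5, a member of the phospholipase D family, fell by 2.21 log2 units from 8.72, 8.81 and 8.98 to 6.50, 6.95 and 6.41 (SE 0.16, adjusted p = 0.00504). Its starvation arrays, at 8.46, 8.61 and 8.46, lay near normal growth. ST6GALNAC3, a sialyltransferase, changed by -1.83 ± 0.08 and PDE2A, which breaks down cAMP and cGMP, by -1.58 ± 0.07. The receptor of gonadotropin-releasing hormone GNRHR changed by -1.76 ± 0.21, the adhesion receptor ADGRL3 by -1.71 ± 0.13 and the chemokine receptor CXCR4 by -1.62 ± 0.14. Falls in secreted and membrane proteins took in the proteoglycan VCAN (-1.69 ± 0.17), the matricellular protein CCN3 (-1.59 ± 0.08) and the membrane protein PLPPR1 (-1.52 ± 0.09). ELOVL3, a fatty acid elongase, changed by -1.61 ± 0.22, the meiosis gene SHOC1 by -1.53 ± 0.15 and the histone gene H2AC4 by -1.58 ± 0.08. The kinase PLK2 differed from these. It read 8.49, 8.35 and 8.50 in normal growth, 7.25, 6.66 and 7.25 in starvation and 7.2, 6.54 and 6.98 with metformin, so that its change of -1.54 ± 0.17 stood beside a difference from starvation of -0.15 ± 0.23 (adjusted p = 0.787).

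**Figure D2:**
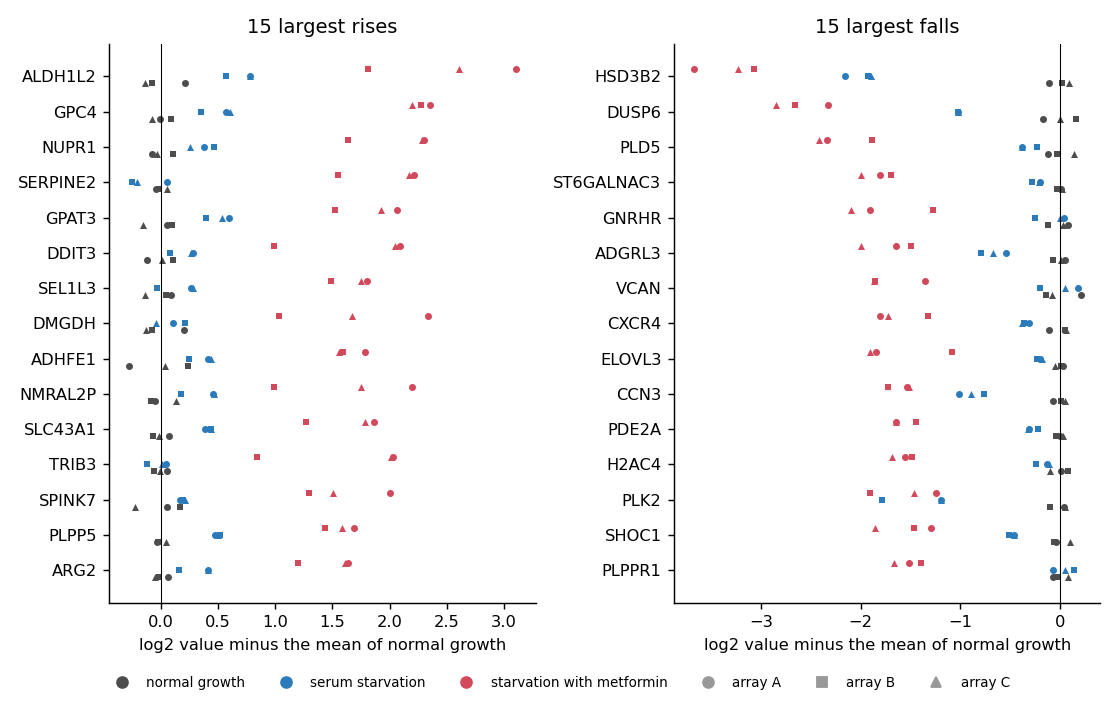
The log2 level of each of the 9 arrays, coloured by group, minus the mean of the normal growth arrays is plotted for the 15 largest rises and the 15 largest falls, 1 gene per row and 1 point per array. The genes were chosen among those whose metformin and normal growth arrays do not overlap, so no row shows an overlap of these groups. The starvation arrays overlap another group in some rows, such as PLK2 and SERPINE2. The changes run from -3.32 in HSD3B2 to 2.51 in ALDH1L2.

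Genes of the integrated stress response were higher with metformin. Of 30 measured regulators and ATF4 targets, 11 rose and 1 fell, and the median change was 0.39 against -0.02 for all genes. The count of 11 became 2 without any 1 normal growth array, and 5, 15 and 7 without metformin A, B and C. Against starvation, 5 members were higher and none lower (12 without metformin B, 3 without C, 0 with any other array left out), and starvation minus normal growth had a median of 0.06 over the list. The ATF4 message itself had a change of 0.12 ± 0.13 (adjusted p = 0.63), from 9.78, 9.81 and 9.76 to 10.09, 9.62 and 10.01, with metformin B below the normal growth arrays. ATF4 is regulated mainly by translation, which these arrays do not read.

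DDIT3, the factor also called CHOP, read 8.59, 8.81 and 8.71 in normal growth, 8.99, 8.78 and 8.97 in starvation and 10.80, 9.70 and 10.75 with metformin. The metformin arrays lay above the rest, B by less than A and C. The change was 1.71 ± 0.30 (3.28-fold, adjusted p = 0.0256), and against starvation 1.5 ± 0.30 (adjusted p = 0.055). TRIB3, a pseudokinase induced by DDIT3 and ATF4, went from 8.04, 7.92 and 7.98 to 10.01, 8.82 and 9.99, with starvation at 8.03, 7.86 and 8.0. Starvation and normal growth overlapped, and metformin stood above both. The change of TRIB3 was 1.63 ± 0.32 (adjusted p = 0.0358), and 1.65 ± 0.33 against starvation (adjusted p = 0.0533). Without metformin B the adjusted p was 0.00571 for DDIT3 and 0.00482 for TRIB3, and with any other array left out neither passed, with adjusted p up to 0.108 and 0.132.

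NUPR1, a stress-induced chromatin protein, read 6.56, 6.75 and 6.61 in normal growth, 7.02, 7.10 and 6.90 in starvation and 8.94, 8.28 and 8.92 with metformin. The 3 groups did not overlap. The change was 2.08 ± 0.19 (adjusted p = 0.00583) and 1.71 ± 0.19 against starvation (adjusted p = 0.0174), and it held with each array left out. CTH, which makes cysteine from cystathionine, rose by 0.97 ± 0.09 and also held with each array left out.

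ASNS, which makes asparagine, read 7.90, 7.85 and 8.01 in normal growth, 8.14, 8.2 and 8.32 in starvation and 9.4, 8.81 and 9.41 with metformin. Each group stood above the one before it. The change of ASNS was 1.29 ± 0.17 (adjusted p = 0.013), with adjusted p up to 0.0697 without 1 normal growth array and 0.00661 without metformin B, and the difference from starvation was 0.98 ± 0.17 (adjusted p = 0.0398). PCK2, the mitochondrial enzyme that makes phosphoenolpyruvate, rose by 1.14 ± 0.15 (adjusted p = 0.0123), and without 1 normal growth array its adjusted p reached 0.0675, and without metformin B it was 0.0071. SESN2, a stress protein that restrains mTORC1, rose by 0.67 ± 0.12 (adjusted p = 0.0278, 0.0114 without metformin B and up to 0.112 with another array left out). The members named next were picked with their values known. The eIF2 phosphatase subunit PPP1R15A (0.83), the tRNA exporter XPOT (0.81), KLHL24 (0.47) and the eIF2 kinase EIF2AK4 (0.30) passed, and the lipoprotein receptor VLDLR passed with a negative change (-0.55). Without metformin B, EIF2AK4 did not pass (adjusted p = 0.0579) and the other 4 did. GDF15, a secreted stress hormone, read 6.48, 6.50 and 6.25 in normal growth and 8.49, 7.17 and 8.61 with metformin, a change of 1.68 ± 0.39 that missed the threshold (adjusted p = 0.0512). Without metformin B it was 2.14 and passed (adjusted p = 0.00689). CHAC1, which breaks down glutathione, missed the threshold with all arrays (0.80, adjusted p = 0.123) and passed without metformin B (1.09, adjusted p = 0.0258). For GDF15 and CHAC1 the other leave-outs are not given, so passing without metformin B is no support for a rise.

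**Figure D3:**
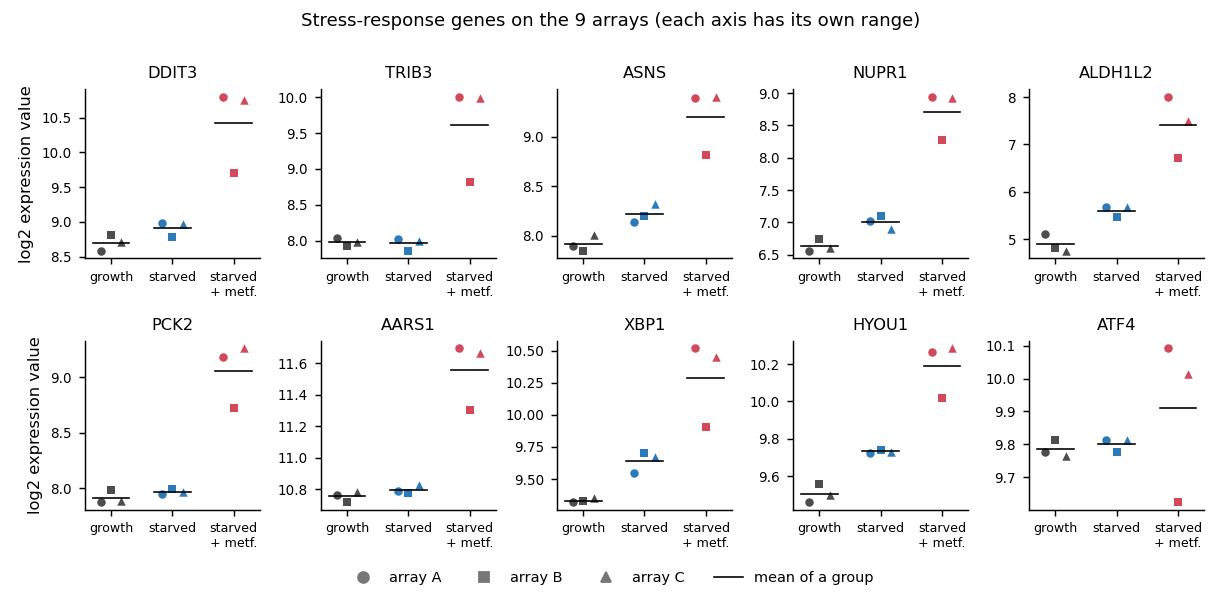
Log2 expression of 10 genes of amino acid and endoplasmic reticulum stress on each of the 9 arrays, with 1 point per array, grouped as normal growth, starvation and metformin, and a bar at each group's mean. DDIT3, TRIB3, NUPR1, ALDH1L2, ASNS and PCK2 are higher on all 3 metformin arrays than on any other, metformin B is the lowest of its group in these, and ATF4 shows overlapping groups.

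The promoter of ASNS is shown because it holds the sequence that ATF4 is known to bind, the amino acid response element. It comes from the RefSeq promoter table (GRCh38.p14), runs from 250 bases before to 50 after the start, and lies at chr7:97872359-97872658 on the minus strand. The element, searched as TGATGNAA on both strands, is in capitals and begins 68 bases before the start.
ASNS: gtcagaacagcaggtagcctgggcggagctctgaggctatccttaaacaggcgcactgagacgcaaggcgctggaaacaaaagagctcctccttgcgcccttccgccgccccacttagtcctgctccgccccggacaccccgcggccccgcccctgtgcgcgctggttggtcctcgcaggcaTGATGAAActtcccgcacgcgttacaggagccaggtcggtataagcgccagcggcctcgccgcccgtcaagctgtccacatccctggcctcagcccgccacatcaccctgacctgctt
The same letters stand in 3.67% of 27305 genes' promoters, in 2.54% of 14239 genes of the array with a promoter, and in 6 of 27 stress response genes (22.2%). Over all genes they stood in 19 of 902 called higher (2.11%). This list too was written from knowledge of the response, so its share is no independent result. Of the 10 members called higher that have a promoter in the table, ASNS alone held them in this window. A match describes the letters and is not a measured binding site.

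Amino acid supply showed scattered rises. Of 22 amino acid transporters, 4 rose and none fell, with a median of 0.16, and the count was 1 without any 1 normal growth array and 1, 8 and 2 without metformin A, B and C. After SLC43A1 came SLC7A5, a carrier of large neutral amino acids (0.53 ± 0.09), the glycine carrier SLC6A9 (0.47 ± 0.09) and the glutamine carrier SLC38A1 (0.46 ± 0.10). Of 15 serine and folate enzymes, 4 rose and 1 fell, with none of the rises left without 1 normal growth array. ALDH1L1, the cytosolic relative of ALDH1L2, rose by 0.99 ± 0.12 and PSAT1 of serine synthesis by 0.83 ± 0.11, while thymidylate synthase TYMS changed by -0.68 ± 0.06. Of 17 enzymes of amino acid synthesis and breakdown, 4 rose (2 without any 1 normal growth array), among them the proline enzyme PYCR1 (0.77 ± 0.09), and ASS1, which joins citrulline to aspartate, was the 1 that fell. ASS1 read 9.51, 9.36 and 9.28 in normal growth, 8.2, 8.40 and 8.40 in starvation and 8.54, 8.85 and 8.70 with metformin. Its change was -0.68 ± 0.10 (adjusted p = 0.0164), and the metformin arrays lay above the starvation arrays by 0.36 ± 0.10 (adjusted p = 0.12).

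Some of the enzymes that charge tRNA passed the test, in both directions. Of 19 cytosolic synthetases, 2 rose and 2 fell (10.5% each, against 6.16% and 6.36% of all genes). AARS1, for alanine, went from 10.77, 10.72 and 10.78 to 11.69, 11.30 and 11.67 (0.80 ± 0.11, adjusted p = 0.0151), and MARS1, for methionine, rose by 0.38 ± 0.08. FARSB (-0.30 ± 0.06) and HARS1 (-0.26 ± 0.05) were lower. None of these 4 passed without 1 normal growth array, and 7 synthetases rose without metformin B. Of 16 mitochondrial synthetases none rose and 3 fell (18.8%). These were CARS2 (-0.62 ± 0.08), SARS2 (-0.36 ± 0.05) and MARS2 (-0.32 ± 0.07), none of which passed without 1 normal growth array.

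Chaperones and folding enzymes of the endoplasmic reticulum rose with metformin. Of 23 measured members, 13 rose and none fell, with a median of 0.31. The count of 13 became 0 without any 1 normal growth array, and 5, 12 and 9 without metformin A, B and C. Against starvation 2 members were higher (5 without metformin B, 0 with any other array left out), and starvation minus normal growth had a median of 0.12 over the list. XBP1, the factor spliced in the unfolded protein response, read 9.32, 9.33 and 9.35 in normal growth, 9.55, 9.70 and 9.68 in starvation and 10.52, 9.90 and 10.45 with metformin. The groups did not overlap, and metformin B was nearer to starvation than A and C were. Its change was 0.96 ± 0.17 (adjusted p = 0.0242, 0.00661 without metformin B and up to 0.101 with another array left out), and against starvation 0.65 ± 0.17 (adjusted p = 0.103). HYOU1, a chaperone of the lumen, rose by 0.68 ± 0.08, DNAJB9, a cofactor of degradation, by 0.69 ± 0.13, and CREBRF by 0.61 ± 0.11. Members chosen after their values were seen are the major chaperone HSPA5 (0.51 ± 0.09, adjusted p = 0.022) and EDEM1, which sorts misfolded glycoproteins (0.59, adjusted p = 0.013). The sensors of this response ERN1 (0.09, adjusted p = 0.351) and ATF6 (0.10, adjusted p = 0.408) did not pass.

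The promoter of XBP1 is shown as an example of the endoplasmic reticulum stress element, searched as CCAAT and CCACG with 9 bases of any kind between them, on both strands. It lies at chr22:28800520-28800819 on the minus strand (RefSeq, GRCh38.p14), with the element in capitals from 52 bases before the start.
XBP1: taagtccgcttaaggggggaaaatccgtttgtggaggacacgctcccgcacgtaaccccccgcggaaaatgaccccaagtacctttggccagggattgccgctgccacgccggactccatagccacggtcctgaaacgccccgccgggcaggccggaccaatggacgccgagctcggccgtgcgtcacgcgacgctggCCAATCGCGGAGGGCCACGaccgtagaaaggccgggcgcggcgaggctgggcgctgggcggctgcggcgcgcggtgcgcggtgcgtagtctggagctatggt
These letters stand in 22 of 27305 promoters (0.0806%), in 7 of 23 genes of the list (30.4%) and in 4 of the 13 that rose, XBP1, HSPA5, HSP90B1 and ERO1B. The list was written from knowledge of this response, so its share is no independent result. Among all 902 called higher genes with a promoter, 5 held the letters.

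Targets of the oxidant sensor NRF2 also rose in part. Of 19 NRF2 targets and pentose phosphate enzymes, 7 rose and none fell, with a median of 0.37. The 7 became 3, 2 and 2 without normal growth A, B and C, and 3, 10 and 5 without metformin A, B and C, and 1 member passed against starvation. The haem transporter SLC48A1 read 9.10, 9.0 and 9.10 in normal growth and 9.86, 9.73 and 9.96 with metformin, a change of 0.79 ± 0.07 that held with each array left out. Thioredoxin TXN (0.62 ± 0.08), its reductase TXNRD1 (0.62 ± 0.11) and OSGIN1 (0.68 ± 0.11) rose. Haem oxygenase HMOX1, chosen after its values were seen, read 8.32, 8.37 and 8.30 in normal growth and 9.85, 8.67 and 9.86 with metformin. Its change of 1.13 ± 0.33 did not pass (adjusted p = 0.0945), with metformin B far below A and C, and without B it was 1.53 (adjusted p = 0.00566). The other leave-outs are not given for HMOX1, so the value without B is no support for a rise.

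Genes of DNA replication fell together. Of 39 measured members, 26 fell and none rose, and the median was -0.48 against -0.02 for all genes. The 26 became 8, 9 and 8 without normal growth A, B and C, and 16, 21 and 24 without metformin A, B and C. Against starvation alone 18 fell, with a median of -0.42, and these became 0 without any 1 starvation array or metformin A, and 12 and 14 without metformin B and C, while starvation minus normal growth had a median of -0.06. GINS3, of the helicase at the fork, read 9.92, 9.90 and 10.02 in normal growth, 9.91, 9.79 and 9.95 in starvation and 8.93, 9.19 and 8.93 with metformin. The first 2 groups overlapped, and all metformin arrays lay below them. Its change was -0.93 ± 0.09 (adjusted p = 0.00624), and it held with each array left out. CLSPN, a checkpoint adaptor at the fork, changed by -0.98 ± 0.15, MCM10 by -0.90 ± 0.12 and the origin protein ORC1 by -0.89 ± 0.13. These 3 did not pass without 1 normal growth array, with adjusted p up to 0.0822. Of the MCM helicase, MCM2 (-0.89 ± 0.06, adjusted p = 0.00407), MCM7, MCM3, MCM5 and MCM4 fell, and MCM6 did not pass (-0.24, adjusted p = 0.171). These MCM genes were picked with their values known.

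The promoters of CLSPN and POLA1, the catalytic subunit of the polymerase that starts new strands, are shown for the 2 E2F motifs searched on both strands, TTTCCCGC and TTTGGCGC. POLA1, chosen as the called member with TTTGGCGC that changed most, changed by -0.82 ± 0.18 (adjusted p = 0.0449). The CLSPN window is chr1:35769929-35770228 on the minus strand and the POLA1 window chrX:24693668-24693967 on the plus strand (RefSeq, GRCh38.p14), with the motif in capitals. In both, the motif lies on the opposite strand, so the capitals are the reverse complement of TTTCCCGC in CLSPN and of TTTGGCGC in POLA1.
CLSPN: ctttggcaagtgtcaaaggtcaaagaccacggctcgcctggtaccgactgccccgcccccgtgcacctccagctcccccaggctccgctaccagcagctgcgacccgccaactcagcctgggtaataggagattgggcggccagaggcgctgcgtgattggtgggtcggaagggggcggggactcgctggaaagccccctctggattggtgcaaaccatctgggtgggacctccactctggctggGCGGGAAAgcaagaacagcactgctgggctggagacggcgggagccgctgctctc
POLA1: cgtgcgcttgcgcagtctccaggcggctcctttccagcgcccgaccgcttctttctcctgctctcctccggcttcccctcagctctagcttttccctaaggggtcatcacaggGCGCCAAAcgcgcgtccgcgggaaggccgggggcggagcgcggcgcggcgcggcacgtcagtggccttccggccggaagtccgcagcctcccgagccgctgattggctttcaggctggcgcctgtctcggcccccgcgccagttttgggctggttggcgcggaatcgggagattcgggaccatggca
Either motif stood in 2.31% of all promoters and in 3.1% of those of array genes. Of the replication list 16 of 33 promoters held one (48.5%), and 13 of the 23 that fell (56.5%). The replication list was written from knowledge of such genes, so its share is no independent result. Over all genes, it stood in 56 of 970 that were called lower (5.77%) and in 29 of 902 called higher (3.22%), and in none of the 35 histone genes that fell.

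Histone messages that follow replication had the highest share of called members among the 60 lists. Of 44 measured genes, 40 fell (90.9%, against 6.36% of all genes) and none rose. On all 44 the metformin arrays lay wholly below the normal growth arrays, which held for 19% of all genes. The median was -0.71. The 40 became 23 to 26 without 1 normal growth array and 34 to 38 without 1 metformin array. Against starvation 35 fell, which became 0 without any 1 starvation array or metformin A, and 22 and 27 without metformin B and C. Over the list, starvation minus normal growth had a median of -0.06. H2AC4 read 9.53, 9.60 and 9.42 in normal growth, 9.39, 9.27 and 9.41 in starvation and 7.96, 8.04 and 7.83 with metformin. Starvation lay just below normal growth, and metformin far below both. Its change was -1.58 ± 0.08 (adjusted p = 0.00221). H2BC3 (-1.46 ± 0.10), H3C12 (-1.36 ± 0.12) and H4C2 (-1.25 ± 0.09) fell as well and held with each array left out. Histone genes are near copies of each other, so probe sets may share signal and the 44 are not separate measurements.

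Genes that supply deoxynucleotides fell in part. Of 13 measured genes 6 fell, 3 of them without any 1 normal growth array. RRM2, the subunit of ribonucleotide reductase made in S phase, read 10.13, 10.05 and 10.15 in normal growth, 10.00, 9.84 and 10.05 in starvation and 8.87, 9.10 and 8.63 with metformin. The metformin arrays stood below both other groups, which overlapped. Its change was -1.24 ± 0.12 (adjusted p = 0.00648) and that against starvation -1.10 ± 0.13 (adjusted p = 0.0189). Thymidine kinase TK1 changed by -1.06 ± 0.10 and SAMHD1, which breaks deoxynucleotides down, by -0.89 ± 0.10.

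Mitotic genes fell too. Of 33 members 16 fell and none rose, with a median of -0.29, and starvation minus normal growth already had a median of -0.19. Against starvation 2 fell, BIRC5 (-0.37 ± 0.06, adjusted p = 0.0381) and DLGAP5 (-0.33 ± 0.06, adjusted p = 0.0428), and none with any 1 array left out. The 16 became 0, 2 and 1 without normal growth A, B and C, and 15, 9 and 13 without metformin A, B and C. NDC80, of the kinetochore, read 9.39, 9.29 and 9.47 in normal growth, 9.30, 9.07 and 9.20 in starvation and 8.84, 8.66 and 8.50 with metformin. The metformin arrays were below all others. NDC80 changed by -0.72 ± 0.10 and the kinetochore motor CENPE by -0.55 ± 0.09.

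The promoter of NDC80 holds the CHR element of late cell cycle genes, searched as TTTGAA on both strands. It is given at chr18:2571307-2571606 on the plus strand (RefSeq, GRCh38.p14) with the element in capitals, 3 bases before the start. It lies on the opposite strand, and the capitals are its reverse complement.
NDC80: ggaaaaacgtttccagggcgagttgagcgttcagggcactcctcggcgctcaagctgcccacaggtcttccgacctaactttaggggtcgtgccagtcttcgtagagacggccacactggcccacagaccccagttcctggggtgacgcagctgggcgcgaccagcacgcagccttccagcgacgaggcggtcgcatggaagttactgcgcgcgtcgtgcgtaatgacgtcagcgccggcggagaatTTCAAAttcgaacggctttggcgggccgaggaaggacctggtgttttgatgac
The element stood in 15.4% of all promoters and in 11.9% of those of array genes. It stood in 19 of 28 mitotic genes (67.9%) and in 9 of the 13 that fell with a promoter (69.2%). The mitotic list was written from knowledge of such genes, so its share is no independent result. Over all genes, the element stood in 156 of 970 called lower (16.1%) and in 80 of 902 called higher (8.87%). Of the 35 histone genes that fell, 12 held it (34.3%).

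Of 24 cyclins, inhibitors and E2F factors of G1, 8 fell and 1 rose, and 3 of the falls passed without any 1 normal growth array. Cyclin E2, CCNE2, read 9.62, 9.56 and 9.57 in normal growth, 9.87, 9.60 and 9.79 in starvation and 8.58, 8.91 and 8.33 with metformin. Only the metformin arrays were low. Its change was -0.98 ± 0.14 (adjusted p = 0.0158), and -1.15 ± 0.16 against starvation (adjusted p = 0.0246). E2F8 (-0.75 ± 0.06), E2F2 (-0.75 ± 0.09) and cyclin D2, CCND2 (-0.71 ± 0.12) fell, while CCND1 had a change of 0.08 ± 0.09 (adjusted p = 0.639). Of 18 genes of recombination repair 6 fell, among them the helicases BRIP1 (-0.73 ± 0.16) and BLM (-0.66 ± 0.10), the nuclease EXO1 (-0.54 ± 0.09) and RAD54L (-0.48 ± 0.07), and none passed without 1 normal growth array or against starvation.

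The machinery that makes and removes protein moved in several ways. Of 28 proteasome subunits 15 fell and none rose, with a median of -0.28, 2 without any 1 normal growth array and 8 to 11 without 1 metformin array. PSMC3 read 9.88, 9.80 and 9.82 in normal growth, 9.82, 9.83 and 9.89 in starvation and 9.21, 9.20 and 9.03 with metformin. Metformin was low and the other groups overlapped. PSMC3 (-0.68 ± 0.07, adjusted p = 0.00669) and PSMB3 (-0.52 ± 0.05, adjusted p = 0.00712) held with each array left out, while PSMD1 (-0.63 ± 0.12) and PSMC2 (-0.41 ± 0.06) did not. Of 19 genes of ribosome biogenesis 9 fell, with UTP20 (-1.12 ± 0.19) and the RNA polymerase I subunit POLR1A (-0.59 ± 0.10) in front, and none passed without 1 normal growth array. Of 57 cytosolic ribosomal proteins 11 rose and 1 fell. The rises included RPL17 (0.71 ± 0.10) and RPL12 (0.42 ± 0.05) and became 0, 0 and 1 without normal growth A, B and C. RPS23 fell from 10.49, 10.43 and 10.48 to 9.79, 9.69 and 9.74 (-0.73 ± 0.05, adjusted p = 0.00504). Ribosomal genes have many processed copies, so these values are uncertain.

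**Figure D4:**
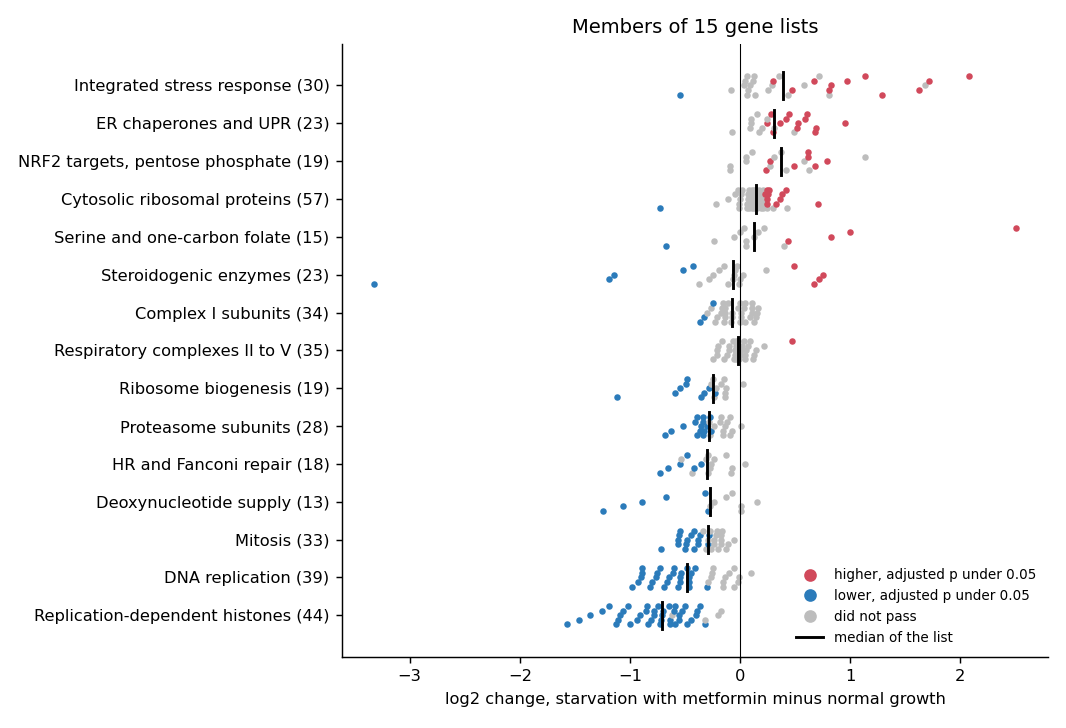
Each point is a measured member of 1 of 15 gene lists, placed by its log2 change (metformin mean minus normal growth mean) on the x axis, with members past the adjusted p of 0.05 in colour and a bar at the list's median. Histones (median -0.71) and DNA replication (-0.48) lie left of 0, and the stress response (0.39) and endoplasmic reticulum lists (0.31) lie right of it.

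The respiratory chain, whose complex I is a known target of metformin, was read here as messages. Of 34 complex I subunits encoded in the nucleus, 3 fell (8.82%, against 6.36% of all genes) and none rose, with a median of -0.07. These were NDUFB3 (-0.36 ± 0.06), NDUFA11 (-0.33 ± 0.06) and NDUFB7 (-0.25 ± 0.05), and none passed without 1 normal growth array. Of 35 subunits of complexes II to V 1 rose (2.86%, against 6.16% of all genes) and none fell. UQCRC2, of complex III, read 10.73, 10.81 and 10.90 in normal growth and 11.32, 11.22 and 11.33 with metformin (0.48 ± 0.06, adjusted p = 0.0137, and up to 0.0705 without 1 array). Of 73 mitochondrial ribosomal proteins 2 rose (2.74%) and 5 fell (6.85%), among them MRPL27 (-0.44 ± 0.10) and MRPL20 (-0.39 ± 0.05). None of these 7 passed without 1 normal growth array. Of 21 mitochondrial chaperones and proteases 1 fell (4.76%), the prohibitin PHB1 (-0.39 ± 0.07).

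Enzymes of glucose use moved in opposite directions within the same pathway. Of 22 genes 4 rose and 4 fell. The enolase ENO2 read 7.02, 7.03 and 7.14 in normal growth, 7.2, 7.26 and 7.27 in starvation and 8.26, 8.04 and 8.02 with metformin. The groups did not overlap. Its change of 1.04 ± 0.08 (adjusted p = 0.00532) held with each array left out, and the 4 rises and 4 falls became 1 and 0 without any 1 normal growth array. The aldolase ALDOC (0.65 ± 0.10) and the phosphofructokinase PFKM (0.38 ± 0.05) rose, while lactate dehydrogenase LDHA changed by -0.37 ± 0.07 (adjusted p = 0.0343), and none of these 3 passed without 1 normal growth array. Of 23 genes of the TCA cycle and pyruvate entry 4 rose and 1 fell, and 1 rise was left without any 1 normal growth array. Next to PCK2, the isocitrate dehydrogenase IDH2 rose by 0.83 ± 0.08 and held with each array left out. Pyruvate carboxylase PC rose by 0.46 ± 0.07 and PDK4, which inhibits pyruvate dehydrogenase, by 0.30 ± 0.05.

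Of 15 genes of fatty acid synthesis 2 fell and none rose. SREBF1, the factor that drives fatty acid synthesis, read 8.68, 8.57 and 8.63 in normal growth, 8.21, 8.17 and 8.21 in starvation and 7.32, 7.63 and 7.24 with metformin. The groups were in that order without overlap. Its change was -1.23 ± 0.11 (adjusted p = 0.00581), held with each array left out, and was -0.80 ± 0.11 against starvation (adjusted p = 0.024). FADS2, a desaturase, changed by -0.79 ± 0.11. Fatty acid synthase FASN did not pass (-0.43 ± 0.13, adjusted p = 0.111). Of 19 genes of fatty acid oxidation PPARA alone passed, with 0.60 ± 0.05. Of 18 genes of cholesterol synthesis and uptake, MSMO1 (0.36 ± 0.06), IDI1 (0.30 ± 0.06) and SC5D (0.27 ± 0.05) rose and PMVK (-0.27 ± 0.06) fell, none of them without 1 normal growth array.

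Steroidogenic genes changed at single steps and not along the whole pathway. Of 23 enzymes and cofactors 4 rose and 5 fell, and 1 or 2 rises and 3 falls were left without 1 normal growth array. The first step enzyme CYP11A1 read 11.91, 11.85 and 11.89 in normal growth and 11.46, 11.82 and 11.53 with metformin (-0.28 ± 0.10, adjusted p = 0.17, and 0.0326 without metformin B). CYP17A1, which makes the androgen precursor DHEA, read 11.40, 11.39 and 11.50 in normal growth and 11.11, 11.54 and 11.19 with metformin (-0.15 ± 0.12, adjusted p = 0.535). In both, metformin B lay near the normal growth arrays and A and C below. STAR, which brings cholesterol into mitochondria, read 11.72, 11.66 and 11.76 in normal growth, 11.25, 11.21 and 11.31 in starvation and 11.61, 11.90 and 11.61 with metformin. Starvation lay below both other groups, which overlapped. STAR changed by -0.01 ± 0.09, and by 0.45 ± 0.10 against starvation (adjusted p = 0.0645).

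Next to HSD3B2, SULT2A1 and STS, which add and remove the sulphate of DHEA, were lower. SULT2A1 read 9.84, 9.77 and 9.84 in normal growth, 9.44, 9.34 and 9.57 in starvation and 8.61, 8.66 and 8.61 with metformin. The groups followed that order without overlap. Its change was -1.19 ± 0.05 (adjusted p = 0.00198). STS read 7.78, 7.5 and 7.54 in normal growth, 7.72, 7.44 and 7.74 in starvation and 6.53, 6.57 and 6.29 with metformin. Only metformin was low. STS changed by -1.15 ± 0.11 (adjusted p = 0.00626), and both genes held and passed against starvation. Aromatase CYP19A1, chosen after its values were seen, also fell (-0.51 ± 0.09, adjusted p = 0.0223).

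HSD3B1, the relative of HSD3B2, went from 5.38, 5.41 and 5.24 to 4.83, 4.89 and 5.02 (-0.43 ± 0.08, adjusted p = 0.0263). It too is dim and falls out when the dimmest probe sets are removed. The pseudogene HSD3BP4 was among the 71 genes that fell 2-fold. These copies resemble HSD3B2, so part of their signal may be shared, and this was not tested. The 3 reductases AKR1C1 (0.72 ± 0.07), AKR1C2 (0.67 ± 0.11) and AKR1C3 (0.75 ± 0.09) rose, and the same limit holds for them. AKR1C3, which makes testosterone from androstenedione, had an adjusted p of 0.00951, and 0.0513 against starvation. PAPSS2, which makes the sulphate donor for SULT2A1, rose by 0.49 ± 0.09. AKR1C1, AKR1C2, PAPSS2 and HSD3BP4 were picked with their values known.

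**Figure D5:**
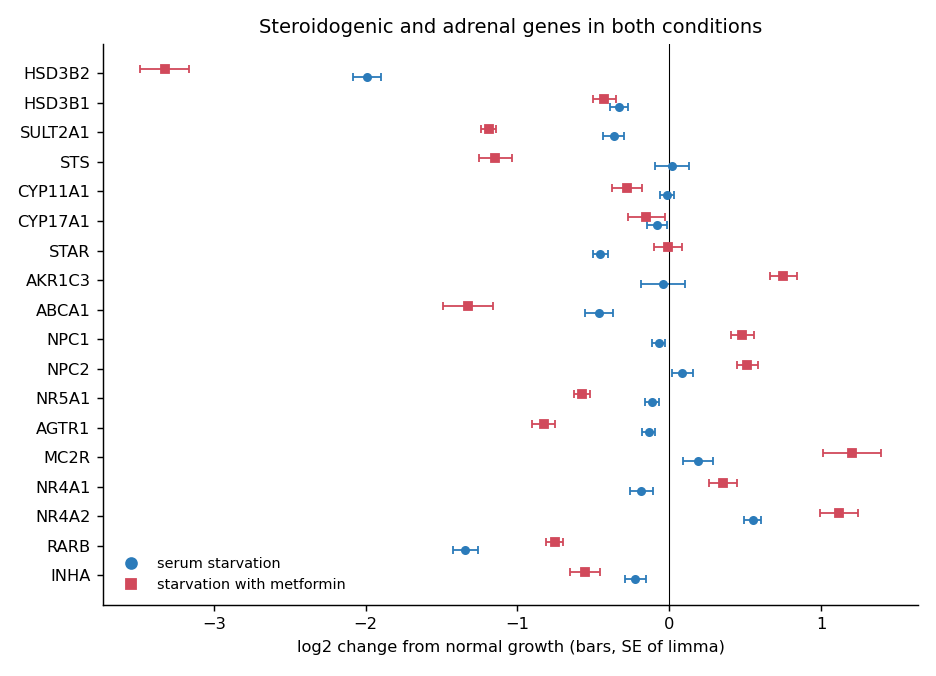
For 18 steroidogenic and adrenal genes, the log2 change from normal growth is shown for starvation and for starvation with metformin, with bars for the standard error (3 arrays per group) and both sharing the normal growth arrays. HSD3B2 lies farthest left in both (-1.99 and -3.32), STS and MC2R lie past 1 unit only with metformin, and STAR lies at -0.45 and -0.01.

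Regulators of the adrenal cell moved both ways. Of 16 transcription factors, receptors and cAMP genes 2 rose and 5 fell, and 2 of the falls were left without any 1 normal growth array. NR5A1 read 10.93, 10.85 and 10.90 in normal growth, 10.77, 10.81 and 10.77 in starvation and 10.27, 10.38 and 10.32 with metformin. The groups did not overlap. Its change of -0.57 ± 0.05 (adjusted p = 0.00616) held with each array left out. The angiotensin receptor AGTR1 changed by -0.83 ± 0.08 and held too, and the protein kinase A subunit PRKAR1B changed by -0.61 ± 0.09.

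MC2R, the ACTH receptor, read 5.32, 4.95 and 5.13 in normal growth, 5.38, 5.32 and 5.26 in starvation and 6.27, 6.72 and 6.02 with metformin. Metformin stood above both other groups. The change was 1.20 ± 0.19 (adjusted p = 0.02, up to 0.0868 without 1 array) and 1.02 ± 0.18 against starvation (adjusted p = 0.0389). NR4A2, an orphan receptor that binds steroidogenic promoters, rose by 1.12 ± 0.13 (adjusted p = 0.00887). NR4A1 read 9.35, 9.32 and 9.47 in normal growth, 9.14, 9.33 and 9.13 in starvation and 9.82, 9.57 and 9.83 with metformin. Its change of 0.36 ± 0.09 missed the threshold (adjusted p = 0.0702), and the difference from starvation of 0.54 ± 0.10 passed it (adjusted p = 0.0445). Among 13 genes that deliver cholesterol, ABCA1, a cholesterol exporter, changed by -1.32 ± 0.16 and ABCG1 by -0.56 ± 0.09, while the lysosomal carriers NPC1 (0.48 ± 0.08) and NPC2 (0.52 ± 0.07) rose.

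RARB, a retinoic acid receptor, was lower in both media without serum. It read 6.02, 6.09 and 6.14 in normal growth, 4.89, 4.61 and 4.71 in starvation and 5.35, 5.28 and 5.35 with metformin. The metformin arrays lay between the other groups without overlap. The change was -0.75 ± 0.06 (adjusted p = 0.00504), and metformin was above starvation by 0.59 ± 0.08 (adjusted p = 0.0258). CCDC3, chosen after its values were seen, was the 1 gene among the 2-fold changes that passed against starvation in the other direction. It read 7.26, 7.22 and 7.22 in normal growth, 5.80, 5.84 and 5.95 in starvation and 6.26, 6.26 and 6.16 with metformin, so that a change of -1.0 ± 0.05 stood beside a difference from starvation of 0.37 ± 0.07 (adjusted p = 0.0427).

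Of 20 genes listed as ERK feedback, 3 fell (15%, against 6.36% of all genes) and none rose, with a median of -0.14. These were the MAP kinase phosphatases DUSP6 and DUSP10 (-1.40 ± 0.16) and the ETS factor ETV5 (-0.67 ± 0.13). DUSP10 read 7.60, 7.39 and 7.61 in normal growth, 6.58, 5.85 and 6.56 in starvation and 6.47, 5.89 and 6.03 with metformin. Starvation and metformin overlapped, and the difference between them was -0.20 ± 0.25 (adjusted p = 0.715). MYC read 9.45, 9.37 and 9.44 in normal growth, 9.41, 9.33 and 9.29 in starvation and 8.45, 8.52 and 8.74 with metformin. Metformin alone was low. The change of MYC, a transcription factor that drives ribosome and nucleotide genes, was -0.85 ± 0.09 (adjusted p = 0.00707), and -0.77 ± 0.09 against starvation (adjusted p = 0.0183). Of the other immediate early factors EGR1 (-0.41 ± 0.09) and KLF10 (-0.41 ± 0.09) fell and JUN (0.32 ± 0.07) rose, none of them without 1 normal growth array.

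Other signalling lists each had some calls. Of 17 Wnt targets and regulators 2 rose (11.8%) and 3 fell (17.6%). In the Notch pathway 2 of 15 fell (13.3%), and of 13 CCN and YAP genes 1 rose (7.69%) and 2 fell (15.4%). Over all genes, 6.16% were called higher and 6.36% lower. The Wnt inhibitor DKK1 read 7.90, 7.89 and 7.90 in normal growth, 8.52, 8.01 and 8.29 in starvation and 7.04, 7.07 and 6.77 with metformin. Starvation was above normal growth and metformin below it. DKK1 changed by -0.94 ± 0.09 (adjusted p = 0.00637), and by -1.31 ± 0.15 against starvation (adjusted p = 0.018). ISM1 had the same order, with -0.59 ± 0.04 and -0.88 ± 0.08, while DKK3 rose by 0.54 ± 0.06. In the Notch pathway the ligand JAG1 (-0.77 ± 0.12) and the target HES1 (-0.76 ± 0.09) fell and did not pass against starvation (adjusted p = 0.185 and 0.294). CCN1 rose by 0.68 ± 0.14 and the YAP partner TEAD4 fell (-0.56 ± 0.09).

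Nutrient sensors were read here as messages, and their phosphorylation was not measured. Of 13 AMPK subunits and upstream kinases 2 rose (15.4%, against 6.16% of all genes) and none fell. These were the scaffold subunit PRKAB2 (0.66 ± 0.12) and the nucleotide-binding subunit PRKAG1 (0.32 ± 0.05), neither of which passed without 1 normal growth array. The catalytic subunits PRKAA1 (-0.09 ± 0.07, adjusted p = 0.526) and PRKAA2 (0.21 ± 0.11, adjusted p = 0.311) did not pass. Of 17 mTORC1 genes 2 rose and 2 fell (11.8% each, with 6.36% of all genes lower). The GTPase RRAGD, which ties mTORC1 to lysosomes, read 10.39, 10.50 and 10.37 in normal growth and 11.14, 11 and 11.07 with metformin (0.65 ± 0.06, adjusted p = 0.00637), and AKT1S1 (-0.42 ± 0.05) and RPTOR (-0.40 ± 0.08) fell. Of 19 insulin and IGF genes 2 rose (10.5%), FOXO4 (0.59 ± 0.05), which held with each array left out, and IGF1 (0.39 ± 0.09). AKT2 (-0.20 ± 0.05) was the 1 that fell (5.26%).

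The starvation medium lacks selenium and transferrin, and genes of these nutrients were described apart. Of 24 selenoproteins and their factors 3 rose and 3 fell (12.5% each, against 6.16% and 6.36% of all genes). Of each, 1 was left without any 1 normal growth array. SELENOW read 9.58, 9.57 and 9.46 in normal growth, 8.62, 8.50 and 8.55 in starvation and 8.79, 8.91 and 8.77 with metformin. Both media without selenium were low. The change was -0.71 ± 0.06 (adjusted p = 0.00583), and the difference from starvation was 0.26 ± 0.07 (adjusted p = 0.0929). SELENOM, a protein of the endoplasmic reticulum, read 8.37, 8.35 and 8.41 in normal growth, 8.50, 8.62 and 8.59 in starvation and 9.42, 9.43 and 9.50 with metformin. Metformin stood above both other groups. The rise was 1.07 ± 0.05 (adjusted p = 0.00215), and 0.88 ± 0.06 against starvation (adjusted p = 0.0118). Of 13 iron genes 2 rose (15.4%) and none fell. Ferritin light chain FTL rose by 0.68 ± 0.08 and the mitochondrial importer SLC25A37 by 0.38 ± 0.08. The transferrin receptor TFRC had a change of -0.10 ± 0.06 (adjusted p = 0.415).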

How the data were processed

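Arrays were grouped by their titles as normal growth, serum starvation and starvation with metformin, 3 each. The authors' deposited values are log2 expression levels per probe set. They were made by RMA, in Affymetrix Expression Console according to the submitters' processing notes, which also list limma, and in Affymetrix Power Tools according to the methods. Their versions were not given in the sources used here. The method corrects background, quantile normalizes probes and summarises probe sets by median polish, which can repeat a value over arrays. Depth has no counterpart on arrays, and 3 arrays per group limit the precision.

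No further normalization was applied. Comparisons used limma 3.58.1 (lmFit and eBayes, R 4.3.3) on the 6 arrays of each comparison, with Benjamini-Hochberg adjustment over all 33297 probe sets. Probe sets with several symbols (1754) or none (12083) were tested and are not named. Of those with none or several, 611 passed. For 769 genes with several probe sets the brightest was used. The fit was tested on simulated data. Because exact permutation of 3 against 3 arrays cannot go below p = 0.1, it was not used. Values of starvation minus normal growth share the normal growth arrays and are given without a test.

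The members, the 60 gene lists and the rule for named genes were chosen with earlier results of these data known. The rule takes the 15 largest rises and 15 largest falls among called genes whose groups do not overlap, up to 4 called members of each list by size of change (up to 2 where none passed), and 17 genes of the study. Other genes named were chosen after their values were seen. Promoters are the first RefSeq window of a gene (GRCh38.p14), found for 14239 array genes. Each promoter shown belongs to the called member of its list that holds the motif and changed most. Alternatives were all 9 arrays, other scalings, filters, probe set rules, variance models, the methods' t-test, a letter block, array weights and leaving out each array. Some items are not reported here.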

Additional observations from a re-analysis of the deposited data

How the results depend on the processing

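The 2306 genes called against normal growth became 1132 with the methods' t-test, 3529 with array weights (2292 shared with the 2306) and 0 with the letter as a replicate block, where 4641 had an unadjusted p under 0.05. They ranged from 360 to 2542 with 1 array left out. The 130 genes at 2-fold became 0 with the block and ranged from 86 (without normal growth C) to 163 (without metformin B) with 1 array left out. No label ties arrays of the same letter to one experiment, and the letters were not taken to pair the arrays: deviations of arrays with the same letter (A, B and C) correlated at -0.09, 0.01 and -0.16 between metformin and normal growth and at 0.29, -0.14 and -0.25 between metformin and starvation, and not every array correlated best with its own letter. Against starvation, the 1111 called genes became 2504 with all 9 arrays, 490 with arrays shifted to a common median, 1971 without dim probe sets, 1942 with single-symbol probe sets, 1950 with probe sets of a gene averaged, 1793 with trend and robust options, 508 with the t-test, 2220 with array weights, and 0 with the block (3521 at an unadjusted p under 0.05). They ranged from 0 to 718 with 1 array left out, with 0 without any 1 starvation array or metformin A, 573 without metformin B and 718 without metformin C. The cause of these differences was not tested. A shift to a common median took the median change of all genes from -0.02 to -0.04 and the share of higher calls from 49.2% to 42.5%.

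Changes that did not pass also turned sign: ATF4 (-0.041), CYP17A1 (0.0054), PPIA (0.013), STAR (0.11) and TEK (-0.016) with array weights, and PPIA with quantile normalization again (0.0048). With 1 array left out, PPIA ranged from -0.049 to 0.040, STAR from -0.11 to 0.040, TEK from -0.0055 to 0.21 and TYROBP from -0.025 to 0.18. No named gene that passed turned sign. With single-symbol probe sets all 2306 genes and all 130 at 2-fold were called again.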

Other observations

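Other groups of genes are given here by their values, without a reading. Of 21 genes of autophagy and the lysosome 5 rose (23.8%, against 6.16% of all genes) and 1 fell (4.76%, against 6.36%). WIPI1, which marks forming autophagosomes, read 9.45, 9.60 and 9.57 in normal growth, 9.47, 9.56 and 9.43 in starvation and 10.31, 10.00 and 10.25 with metformin, a change of 0.65 ± 0.10 (limma, adjusted p = 0.0164). The lysosomal protease CTSL (0.62 ± 0.08) and the membrane protein LAMP2 (0.53 ± 0.06) rose, as did GABARAPL1 (0.44 ± 0.07). The 5 rises became 1, 0 and 1 without normal growth A, B and C. Of 19 hypoxia genes 5 rose (26.3%) and 1 fell (5.26%), led by NDRG1 (0.68 ± 0.10) and the MYC antagonist MXI1 (0.66 ± 0.10). The collagen hydroxylases P4HA2 (0.61 ± 0.08) and P4HA1 (0.43 ± 0.07) also rose. The 5 hypoxia rises became 0, 1 and 0 without normal growth A, B and C. Of 25 collagens and basement membrane genes 3 rose, the nidogens NID2 (1.21 ± 0.11) and NID1 (0.79 ± 0.10) and the laminin LAMB1 (0.28 ± 0.06), and NID2 held with each array left out.

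Of 16 clock genes 3 rose (18.8%) and 2 fell (12.5%). NFIL3, a repressor of clock output, read 7.97, 8.05 and 8.12 in normal growth, 8.32, 8.09 and 8.33 in starvation and 9.45, 8.91 and 9.24 with metformin (1.15 ± 0.14, adjusted p = 0.0106, and up to 0.062 without 1 normal growth array). The clock repressor CRY1 rose by 0.44 ± 0.05, and PER2 (-0.47 ± 0.10) and the output factor DBP (-0.45 ± 0.07) fell. SYP, a vesicle protein, read 8.53, 8.55 and 8.42 in normal growth and 7.57, 7.29 and 7.45 with metformin (-1.06 ± 0.09, adjusted p = 0.00532), and it held. SLC47A1, an exporter that carries metformin, was the 1 of 7 organic cation transporters that passed, at 10.16, 10.09 and 10.10 in normal growth, 9.84, 9.83 and 9.88 in starvation and 10.44, 10.51 and 10.41 with metformin (0.34 ± 0.05, adjusted p = 0.019, and 0.60 ± 0.06 against starvation, adjusted p = 0.0145). Of 17 apoptosis regulators 3 rose (17.6%, against 6.16% of all genes) and 2 fell (11.8%, against 6.36%). The survival factor BCL2 changed by -0.60 ± 0.06 and held, with a difference from starvation of -0.12 ± 0.06 (adjusted p = 0.322). The death receptor TNFRSF10B (0.44 ± 0.07), HRK (0.49) and the apoptosis inhibitor XIAP (0.42) rose, none of them without any 1 normal growth array. The purine enzyme IMPDH2 (0.49 ± 0.06) rose and PAICS (-0.40 ± 0.07) and GART (-0.39 ± 0.06) fell. None of 10 genes of the metallothionein list passed with limma. The zinc exporter SLC30A1, which is in that list and is not a metallothionein, had a change of -0.22 ± 0.09.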
